A study of Homo sapiens with 16 samples.

Results

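The untreated ovarian carcinoma cell lines UWB1.289 and OVCAR3 were compared with each other across all genes, using the 8 libraries of the series whose labels give vehicle treatment (DMSO), 4 of each line, out of 16 libraries in all. The other 8 libraries, 4 of each line, came from cells kept with olaparib and served as a second set of libraries for the same comparison of lines. UWB1.289 carries a mutated BRCA1 gene and OVCAR3 a wild-type one, and all 8 control cultures received DMSO for 96 h. UWB1.289 was grown in a mixture of MEGM mammary epithelial medium and RPMI1640 with a small share of fetal bovine serum, whereas OVCAR3 was grown in RPMI1640 with a larger share of serum and added bovine insulin. The kits sold as MEGM contain epidermal growth factor and hydrocortisone among other additives. Each side of the comparison is therefore a single cell line in its own medium, and line, BRCA1 status and medium cannot be told apart. According to the design text the experiment was done 4 times, so the p-values measure the spread between repeats of a culture of 1 line and not the spread between patients or tumours.

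High-grade serous carcinoma is thought to arise mostly from the secretory epithelium of the fallopian tube, which is marked by the transcription factor PAX8, by keratins of simple epithelia and by surface antigens such as MUC16, the CA-125 antigen. Epithelial cells hold together through cadherins, claudins and desmosomes and sit on a basement membrane of laminins and collagen IV. In epithelial-mesenchymal transition they lose part of these contacts and gain vimentin, N-cadherin, fibronectin and proteases, often only in part and in varied mixtures. Cultured carcinoma cells also make growth factors and cytokines for their own receptors, and type I interferon signalling, which starts at the receptor chains IFNAR1 and IFNAR2, sets the level of a large group of antiviral genes.

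The values are counts of sequenced reads per gene from 3′ end libraries, in which a transcript gives reads from its tail whatever its length. Total counts ran from 5706282 to 7730228 over the 8 libraries and 18376 to 19394 genes had at least 1 count in a library, and the lines overlapped in both. Levels are given as CPM, that is counts scaled to a library of 1000000 with TMM factors, always in the order of replicates 1 to 4, and fold changes are log2 values of UWB1.289 over OVCAR3 from edgeR's quasi-likelihood test, so a negative value means higher in OVCAR3. The lines were said to differ in a gene, which is then called differentially expressed, when the adjusted p was under 0.1, the difference exceeded 2-fold and the normalized count averaged over 10. The lines differed in a large part of their transcripts: 2498 of 13366 tested genes (18.7%) were higher in UWB1.289 and 2629 (19.7%) in OVCAR3, together 38.4%. The libraries of the lines did not overlap in level for 69.4% of the tested genes, so that a lack of overlap by itself was common here. These shares are the background for each gene group described. The gene lists were written with earlier results of these data known, so a share above the background is not a test of a gene class.

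BRCA1, the gene whose status separates the lines, lies at chr17:43044295-43170245 (GRCh38) and stood at 22.8, 21.1, 24.8 and 28 CPM in UWB1.289 and 42, 40.1, 51 and 41 CPM in OVCAR3. The groups did not overlap and the mean was lower in UWB1.289, but the difference was under 2-fold (log2 fold change -0.84 ± 0.12 SE, adjusted p = 1.25e-07), so it was not counted as differentially expressed with DMSO. In the olaparib libraries BRCA1 was called higher in OVCAR3 (log2 fold change -1.13). Counts of the tail of a transcript do not show whether it carries the mutation.

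The 10 genes with the largest differences in favour of UWB1.289 had no count in any of the OVCAR3 libraries. CCND2, a D-type cyclin that drives entry into S phase, had 13756 counts over the UWB1.289 libraries and 0 over the OVCAR3 libraries and was thus at least 4433-fold higher, where the bound sets the OVCAR3 group at 3 counts. MT1E, a metal-binding metallothionein, was at least 6752-fold higher, although metallothionein genes resemble each other closely and reads may be split among them. AJAP1, a protein of adherens junctions, was at least 1979.7-fold higher and the RNA-binding protein gene CELF2 at least 1908-fold. The others were MT1L, SFTA1P, NDN, PDE1C, PADI1 and BHMT2. In the other direction EMX2, a homeobox factor of urogenital development, had 0 counts over the UWB1.289 libraries and 11361 over the OVCAR3 libraries and was at least 3917-fold higher in OVCAR3. BMP7, a bone morphogenetic protein, had 2 counts over the UWB1.289 libraries and 17427 over the OVCAR3 libraries, a ratio of 9013 with a 95% counting interval of 2495 to 74426. The antisense gene EMX2OS beside EMX2, the kidney and gonad factor WT1, LINC02672, ALKBH5, RWDD2B, BZW2 and LY6E were among the 10 largest differences in favour of OVCAR3, each with no count in UWB1.289.

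**Figure D1:**
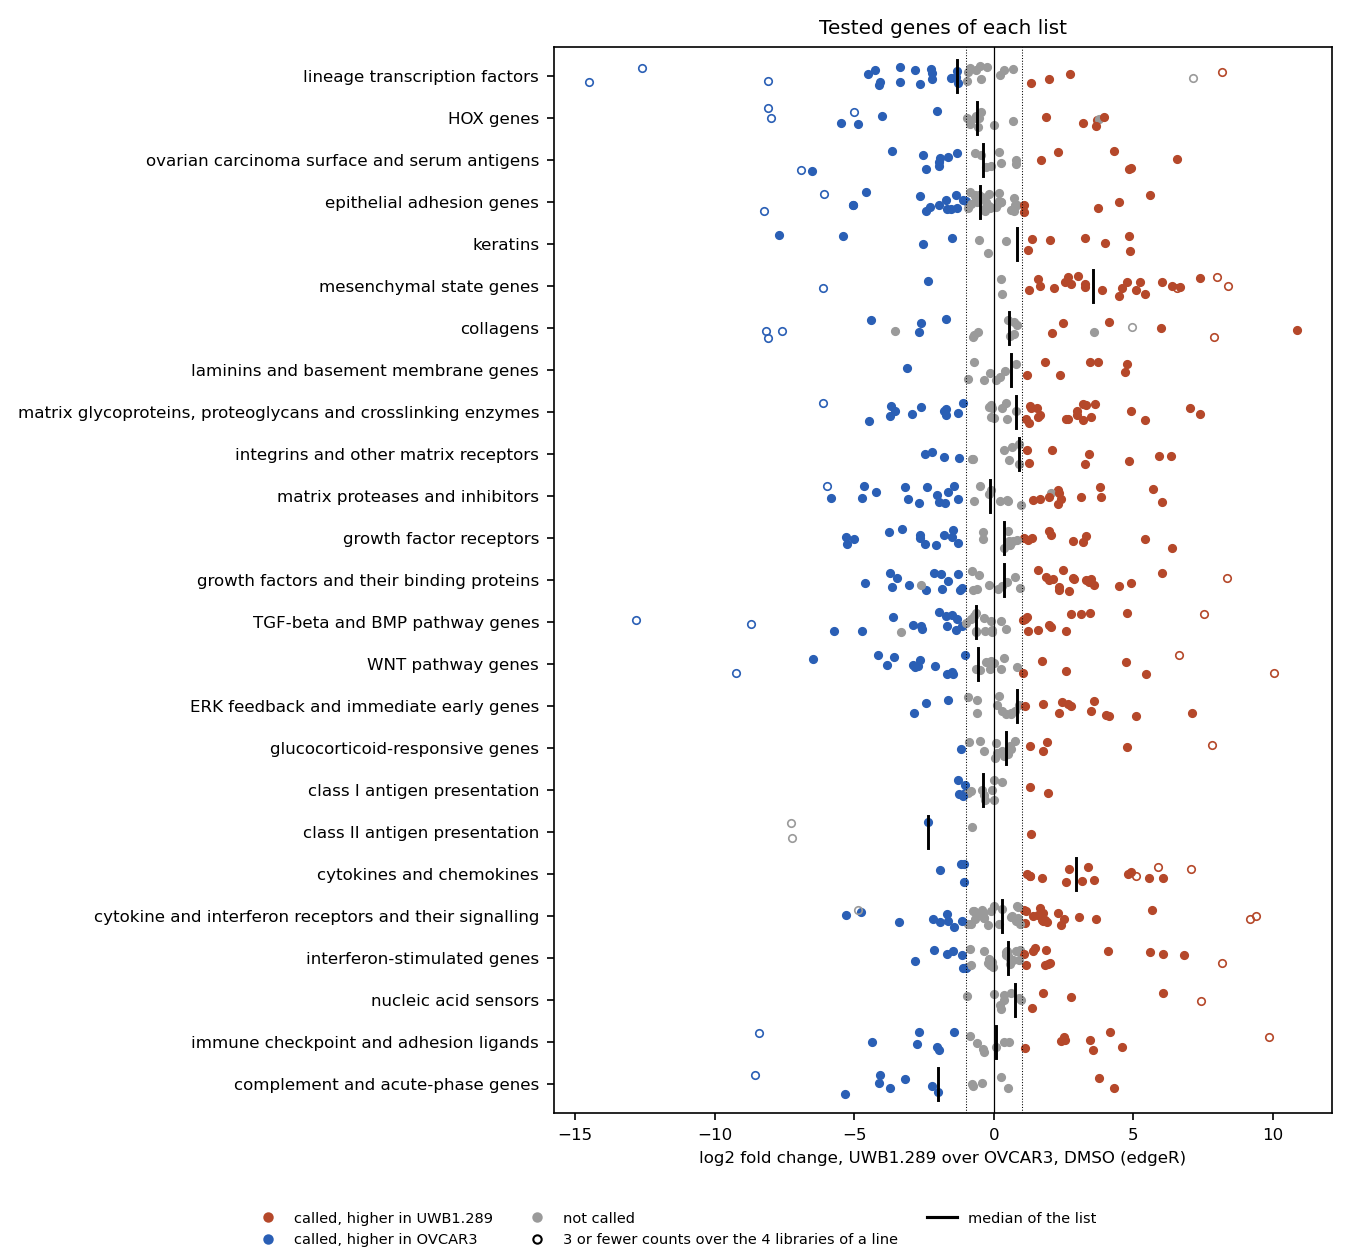
Each point is a tested gene of a list, placed by its log2 fold change of UWB1.289 over OVCAR3 in the DMSO libraries, and each vertical bar is the median of its list. Points of the mesenchymal state genes lie mostly to the right, with a median of 3.57, and those of the lineage transcription factors and the complement and acute-phase genes mostly to the left, with medians of -1.34 and -2.01.

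PAX8 and SOX17 were measured in both lines at levels within 2-fold of each other, while most other lineage factors that differed were higher in OVCAR3. Among the lineage transcription factors 4 of the 33 tested genes were higher in UWB1.289 and 18 in OVCAR3, 66.7% in all, and the median was -1.34. Of these 33 genes 5 had 3 or fewer counts in 1 line, passed the filter on low counts through the other line and had to differ. This share is therefore not read against the background of 38.4%. PAX8, the factor of Müllerian secretory cells, stood at 283, 283, 292 and 281 CPM in UWB1.289 and 459, 377, 438 and 494 CPM in OVCAR3 (log2 fold change -0.64 ± 0.073 SE, adjusted p = 4.81e-09). WT1, a factor of gonadal and serous differentiation, stood at 0, 0, 0 and 0 CPM in UWB1.289 and 126, 111, 117 and 126 CPM in OVCAR3. PAX8 was thus well above 0 in all 8 libraries, whereas WT1 was absent from the counts of UWB1.289 and was at least 1071-fold higher in OVCAR3. The homeobox and patterning factors LHX1 and MEIS1 were higher in OVCAR3 (log2 fold changes -4.28 and -2.82), as were the AP-2 factor TFAP2A (-4.51) and the ciliated cell factor FOXJ1 (-4.07). MECOM, often gained in ovarian carcinoma, was also higher in OVCAR3 (-2.2), and FOXL2, a factor of granulosa cells, had 1 count over the UWB1.289 libraries and 395 over the OVCAR3 libraries (ratio 409, 95% interval 72.9 to 16178). UWB1.289 had more of GATA3 and SOX9, regulators of luminal and progenitor cells, and of the nuclear receptor NR2F2 and OVOL1. GATA3 had 450 counts over the UWB1.289 libraries and 1 over the OVCAR3 libraries (ratio 435, 95% interval 77.7 to 17222), and the log2 fold changes of SOX9, NR2F2 and OVOL1 were 2.74, 1.35 and 1.97. SOX17, a partner of PAX8 in the same lineage, and GRHL2, a keeper of epithelial identity, differed by less than 2-fold (-0.48 and -0.94).

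Antigens used to recognise ovarian carcinoma were split between the lines. Of their 24 tested genes 6 were higher in UWB1.289 and 10 in OVCAR3. MUC16 stood at 24.9, 52.6, 26.9 and 39.9 CPM in UWB1.289 and 352, 105, 175 and 199.7 CPM in OVCAR3 (log2 fold change -2.53 ± 0.22 SE, adjusted p = 1.93e-11). WFDC2, which encodes the serum marker HE4, stood at 34.9, 47.3, 23.4 and 28.8 CPM in UWB1.289 and 411, 415, 398 and 449 CPM in OVCAR3 (log2 fold change -3.64 ± 0.12 SE, adjusted p = 7.13e-22). EPCAM, the epithelial cell adhesion molecule, stood at 518, 511, 588 and 552 CPM in UWB1.289 and 289.7, 339, 314 and 305 CPM in OVCAR3 (log2 fold change 0.80 ± 0.069 SE, adjusted p = 1.16e-11). For MUC16 and WFDC2 all 4 OVCAR3 libraries were the higher ones, and for EPCAM all 4 UWB1.289 libraries were, by less than 2-fold. The carrier of retinoic acid CRABP2 (-6.51), the adhesion genes CDH6 (-1.64) and CLDN6 (-2.42), the checkpoint ligand VTCN1 (-1.98) and the small surface glycoprotein CD24 (-1.94) were higher in OVCAR3, and ALDH1A1, an aldehyde dehydrogenase, had 3 counts over the UWB1.289 libraries and 406 over the OVCAR3 libraries (ratio 140.0, 95% interval 47.6 to 682). The mucin MUC4 (6.56), the hyaluronan receptor CD44 (4.86), osteopontin SPP1 (4.91) and lipocalin LCN2 (4.3) were higher in UWB1.289. Mesothelin MSLN, the folate receptor FOLR1 and MUC1 were not differentially expressed (-0.09, -0.29 and 0.25).

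Among the keratins, the intermediate filaments of epithelia, KRT7, KRT8, KRT18 and KRT19 were high in both lines. Of 20 listed keratins 6 were too low to test, and of the 14 tested 7 were higher in UWB1.289 and 4 in OVCAR3. KRT7 stood at 1444, 1361, 1451 and 1349 CPM in UWB1.289 and 321, 385, 356 and 312 CPM in OVCAR3 (log2 fold change 2.03 ± 0.07 SE, adjusted p = 3.22e-21), and its groups did not overlap. KRT18 averaged 4163 ± 204 CPM in UWB1.289 against 1782 ± 68 CPM in OVCAR3 (means ± SD of 4 libraries here and in what follows, log2 fold change 1.22), with KRT8, its partner, at 0.42 and KRT19 at -0.21, both short of the limit. KRT80, KRT13, KRT6A, KRT81 and KRT86 were higher in UWB1.289 as well, the last 3 with reads that close copies may share, whereas KRT4 (-7.69), KRT23 (-5.42), KRT17 (-2.56) and KRT15 (-1.49) were higher in OVCAR3. Keratins KRT5 and KRT14 of basal cells were too low to test.

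Most markers of other cell types were low in both lines, with WT1 in OVCAR3 and the collagen I genes as exceptions. Of 12 leukocyte markers 10 were not tested because of low counts, and their summed level was 8.48 to 12.3 CPM in UWB1.289 and 2.08 to 2.88 CPM in OVCAR3, with CD14 and PTPRC higher in UWB1.289 (CD14 2.07 and PTPRC 4.6) and MS4A1, TYROBP and CSF1R at 0 in both lines. Endothelial markers summed to 13.2 to 20.1 CPM in UWB1.289 and 6.37 to 8.33 CPM in OVCAR3. Fibroblast markers summed to 49.9 to 72.9 and 22.2 to 30.8 CPM, of which COL1A2 and COL1A1 made up the larger part, while COL3A1 and LUM had no count in either line. Mesothelial markers summed to 24.4 to 31.5 and 135 to 156 CPM, the larger sum being WT1, with ITLN1, PRG4 and HP at 0 in both. The part of such cells in the differences between the lines was not tested.

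The HOX genes, which set position along the body and the reproductive tract, followed their place in the cluster at HOXA. Over all 4 clusters 5 of the 22 tested genes were higher in UWB1.289 and 7 in OVCAR3. In the HOXA cluster on chromosome 7, HOXA2, HOXA3, HOXA4 and HOXA5 were higher in OVCAR3 (log2 fold changes -5.48, -4.0, -2.04 and -4.87), HOXA7 and HOXA9 lay below the limit on the same side (-0.64 and -0.97), and HOXA10 and HOXA11, which pattern the uterus, were higher in UWB1.289 (3.71 and 1.87). HOXA10 stood at 39.1, 36, 34.8 and 38.9 CPM in UWB1.289 and 3.6, 3.64, 1.3 and 3.0 CPM in OVCAR3 and HOXA5 at 3.3, 5.61, 3.16 and 3.65 CPM in UWB1.289 and 119, 96.4, 107 and 135 CPM in OVCAR3. The lines were separated without overlap for both genes, in opposite directions. The antisense genes HOXA-AS2 (-6.39) and HOTAIRM1 (-1.86) lie in the same stretch, and how the counting treated strand is not stated, so reads of a HOXA gene and its antisense partner may not be separable. At HOXC, HOXC6 had 1 count over the UWB1.289 libraries and 392 over the OVCAR3 libraries (ratio 405, 95% interval 72.3 to 16055) and HOXC4 3 counts over the UWB1.289 libraries and 108 over the OVCAR3 libraries (ratio 37.2, 95% interval 12.4 to 183). At HOXD, HOXD3, HOXD4 and HOXD9 were higher in UWB1.289 (3.19, 3.94 and 3.68), and at HOXB, HOXB13 was at least 43.1-fold higher in OVCAR3 while HOXB2, HOXB3, HOXB4 and HOXB7 were not differentially expressed.

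Among the epithelial adhesion genes E-cadherin and several nectins were higher in OVCAR3 and a few claudins much higher in UWB1.289. In all 5 of the 48 tested genes were higher in UWB1.289 and 16 in OVCAR3. This was 43.8% together, close to the background of 38.4%, and the median was -0.48. CDH1, the E-cadherin of adherens junctions at chr16:68737292-68835537, stood at 22.8, 25.4, 17.1 and 27.5 CPM in UWB1.289 and 102, 121, 107 and 120.3 CPM in OVCAR3 (log2 fold change -2.27 ± 0.11 SE, adjusted p = 1.14e-17). NECTIN3, an adhesion molecule that starts such junctions, stood at 10.2, 10.9, 11.5 and 12 CPM in UWB1.289 and 271, 250.3, 258 and 282 CPM in OVCAR3 (log2 fold change -4.57 ± 0.094 SE, adjusted p = 1.19e-26). In each case the 4 UWB1.289 libraries were all below the OVCAR3 libraries. CLDN1, a claudin of tight junctions, went the other way and stood at 736, 644, 673 and 770.2 CPM in UWB1.289 and 50.8, 66.1, 50.4 and 48.1 CPM in OVCAR3 (log2 fold change 3.72 ± 0.091 SE, adjusted p = 6.03e-25). CLDN16, its neighbour on chromosome 3, stood at 525, 525, 604 and 598 CPM in UWB1.289 and 30.9, 21.5, 24.6 and 22.8 CPM in OVCAR3 (log2 fold change 4.5 ± 0.10 SE, adjusted p = 2.74e-26).

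Other members of the junctions differed in both directions. P-cadherin CDH3 (-1.72), the desmocollins DSC2 (-2.65) and DSC3 (-5.04), NECTIN4 (-5.04), the catenin CTNNA1 (-1.35), the tight junction genes TJP3 (-1.68) and LSR (-1.3) and the splicing factor ESRP2 (-1.55) were higher in OVCAR3. NECTIN1 had 2 counts over the UWB1.289 libraries and 164 over the OVCAR3 libraries (ratio 84.8, 95% interval 23.1 to 706), and CLDN10 was at least 50.7-fold higher in OVCAR3. CLDN11 (5.61), a claudin of tight junction strands, and the desmosomal plakophilin PKP2 (1.07) were higher in UWB1.289. The claudins CLDN3, CLDN4 and CLDN7 (-0.36, -0.31 and 0.73), desmoplakin DSP (0.17), the splicing factor ESRP1 (0.25) and beta-catenin CTNNB1 (-0.43) all differed by less than 2-fold.

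The mesenchymal state genes that were called were mostly higher in UWB1.289. Among them 24 of the 28 tested genes were higher in UWB1.289 and 2 in OVCAR3, 92.9% in all, with a median of 3.57. Of these 28 genes 4 had 3 or fewer counts in 1 line, passed the filter on low counts through the other line and had to differ. Nothing is therefore read from this share. VIM, the intermediate filament vimentin, stood at 49.6, 67.1, 80.8 and 67.2 CPM in UWB1.289 and 2.61, 1.21, 1.3 and 1.86 CPM in OVCAR3 (log2 fold change 5.23 ± 0.19 SE, adjusted p = 1.57e-20). FN1, the matrix protein fibronectin at chr2:215360440-215436073, stood at 1577, 1829, 1533 and 1797 CPM in UWB1.289 and 7.52, 11.1, 10.9 and 10.1 CPM in OVCAR3 (log2 fold change 7.4 ± 0.11 SE, adjusted p = 2.31e-30). CDH2, the N-cadherin, stood at 136, 121, 109 and 137 CPM in UWB1.289 and 6.54, 9.54, 10.7 and 7.85 CPM in OVCAR3 (log2 fold change 3.86 ± 0.12 SE, adjusted p = 3.08e-22). None of the 3 genes overlapped between the lines, and FN1 had the largest log2 fold change of the list among genes with more than 3 counts in each line. AXL, a receptor kinase often seen in mesenchymal-like carcinoma, stood at 138, 131, 192 and 157 CPM in UWB1.289 and 2.94, 1.73, 2.02 and 0.714 CPM in OVCAR3 (log2 fold change 6.39 ± 0.18 SE, adjusted p = 2.12e-23). CAV1, the coat protein of caveolae, stood at 285, 379, 409 and 386 CPM in UWB1.289 and 11.1, 12, 10.2 and 9.13 CPM in OVCAR3 (log2 fold change 5.11 ± 0.12 SE, adjusted p = 1.32e-25).

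The actin-binding TAGLN (6.67) and tropomyosin TPM2 (3.28), the matrix-associated SPARC (4.78) and TGFBI (5.41) and the ecto-enzyme NT5E (4.61) were also higher in UWB1.289. The transcription factor TWIST1 was higher too (2.55), and TWIST2 was at least 54.5-fold higher. ZEB1, ZEB2 and SNAI2, repressors of E-cadherin, were too low to test, with 27, 18 and 23 counts over the UWB1.289 libraries and 0, 2 and 1 over the OVCAR3 libraries. The exceptions were the crosslinking enzyme gene LOXL2, with 1 count over the UWB1.289 libraries and 101 over the OVCAR3 libraries (ratio 104, 95% interval 18.3 to 4167), and the calcium-binding S100A4 (-2.36), both higher in OVCAR3. CALD1 and MYL9, genes of the contractile apparatus, were not differentially expressed (0.29 and 0.26). In the UWB1.289 libraries vimentin, N-cadherin and fibronectin were thus measured together with EPCAM, KRT7, KRT18 and the claudins, within bulk samples that cannot show whether the same cells held them. Bulk counts also do not separate fewer cells of a kind from less RNA per cell.

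**Figure D2:**
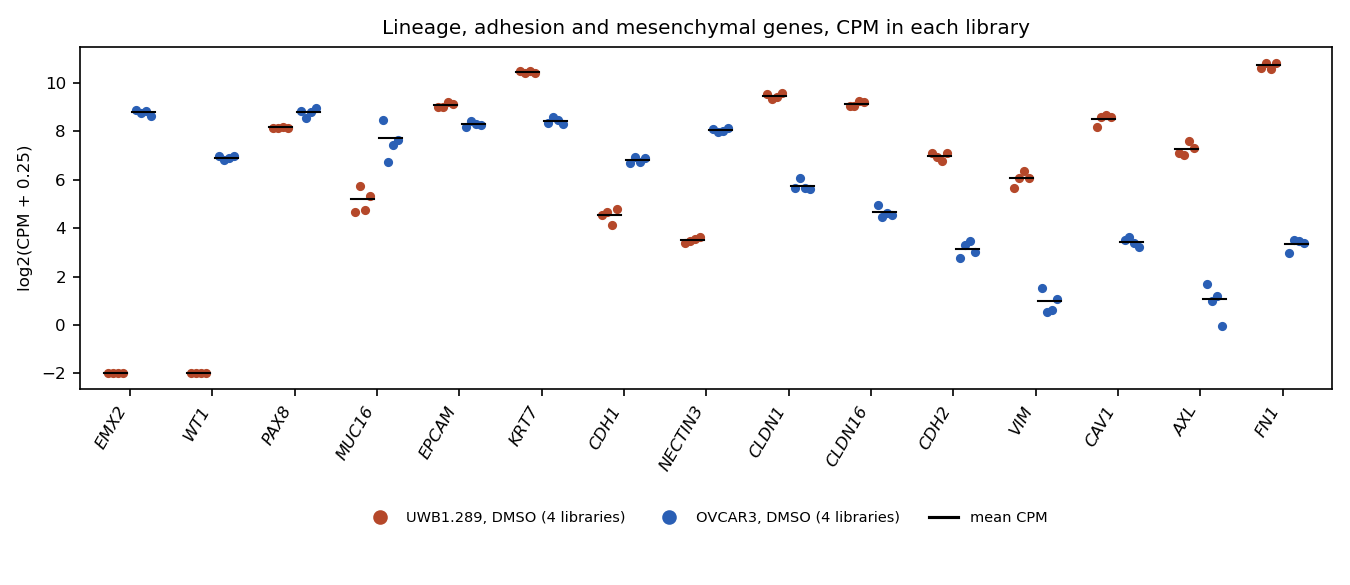
Each point is the level of a gene in a library as log2(CPM + 0.25), with 4 UWB1.289 libraries on the left and 4 OVCAR3 libraries on the right of each gene, and each bar is the group mean. EMX2 and WT1 lie at the floor in UWB1.289, PAX8 and EPCAM lie close together in the lines, and VIM, CAV1, AXL and FN1 lie high in UWB1.289 and low in OVCAR3.

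Collagens, the fibrous and sheet-forming proteins of the matrix, were exchanged between the lines gene by gene. Of the tested collagen genes 6 were higher in UWB1.289 and 7 in OVCAR3, out of 24. COL8A1, a short-chain collagen, stood at 340.4, 365, 455 and 408 CPM in UWB1.289 and 0.654, 0.173, 0 and 0 CPM in OVCAR3 (log2 fold change 10.85 ± 0.21 SE, adjusted p = 4.09e-27). The chains of collagen I went in opposite directions: COL1A1 averaged 3.77 ± 0.13 CPM in UWB1.289 against 24.2 ± 4.13 CPM in OVCAR3 (-2.68) and COL1A2 48 ± 7.22 CPM in UWB1.289 against 0.725 ± 0.487 CPM in OVCAR3 (5.99). COL18A1, the basement membrane collagen from which endostatin is cut, stood at 39.1, 35.5, 30.8 and 35.5 CPM in UWB1.289 and 222, 203, 231 and 201 CPM in OVCAR3 (log2 fold change -2.6 ± 0.087 SE, adjusted p = 1.27e-21). The groups did not overlap for any of these 4 genes. COL4A4 was higher in UWB1.289 (4.13) and COL4A5 and COL5A2 in OVCAR3 (-1.71 and -4.4), while COL4A1 and COL4A2, the common chains of collagen IV, and COL6A1 and COL6A2 were not differentially expressed (0.51, 0.71, 0.60 and 0.71). In UWB1.289 COL22A1 was at least 38.4-fold higher, and COL23A1 and COL9A1 at least 47.9-fold and at least 46.9-fold higher in OVCAR3.

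Of the laminins and basement membrane genes 7 of 16 tested genes were higher in UWB1.289 and 1 in OVCAR3, 50% in all beside the background of 38.4%. The epithelial laminin chains LAMA3 and LAMB3 were not differentially expressed (0.81 and -0.15). LAMB1 (1.85) and LAMA4 (3.71), the linker proteins nidogen NID1 (4.7) and NID2 (2.37) and the proteoglycan perlecan HSPG2 (1.19) were higher in UWB1.289, and LAMA1, a chain of embryonic laminin, was higher in OVCAR3 (-3.1).

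Of the glycoproteins, proteoglycans and crosslinking enzymes of the matrix 20 of 41 tested genes were higher in UWB1.289 and 12 in OVCAR3. This was 78% together beside the background of 38.4%, in a list written with earlier results of these data known. CCN2, a matricellular growth factor also known as CTGF, stood at 503, 388, 392 and 446 CPM in UWB1.289 and 28.8, 35.6, 35.6 and 39.8 CPM in OVCAR3 (log2 fold change 3.63 ± 0.10 SE, adjusted p = 6.75e-24). Its relative CCN1 averaged 436 ± 85.7 CPM in UWB1.289 against 72.4 ± 8.7 CPM in OVCAR3 (2.59), and the crosslinking transglutaminase TGM2 averaged 284 ± 15.1 CPM in UWB1.289 against 25.2 ± 6.0 CPM in OVCAR3 (3.49). All 3 genes were higher in every UWB1.289 library than in any OVCAR3 library. Thrombospondin THBS1 (3.2), the lysyl oxidase-like LOXL4 (7.04), the glypican GPC4 (2.96) and the latent TGF-beta binding protein LTBP2 (3.21) followed them. Fibrillin FBN2 (-4.49), GPC1 (-3.72) and GPC6 (-3.54), LTBP1 (-2.93), biglycan BGN (-2.6), tenascin TNC (-1.7) and syndecan SDC1 (-1.11) were higher in OVCAR3. Other members of these families, FBN1 (2.65), GPC4, LTBP2 and SDC2 (1.26), were higher in UWB1.289.

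CCN2 is a textbook target of the YAP and TEAD factors, whose binding motif is CATTCC. Its promoter is shown because the gene stood far apart between the lines, from 250 bases before to 50 bases after the start site in RefSeq (GRCh38.p14, chr6:131951323-131951622 on the minus strand), with matches to CATTCC in either orientation in capitals.
CCN2 promoter: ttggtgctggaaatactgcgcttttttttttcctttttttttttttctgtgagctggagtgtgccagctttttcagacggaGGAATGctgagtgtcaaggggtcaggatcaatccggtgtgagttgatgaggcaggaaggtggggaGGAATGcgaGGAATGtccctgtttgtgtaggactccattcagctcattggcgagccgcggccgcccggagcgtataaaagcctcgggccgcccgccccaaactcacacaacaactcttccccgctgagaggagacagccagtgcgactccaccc
The window held 3 matches, against at least 1 match in 14.05% of the 27305 promoters of that length. Binding of a factor was not measured here.

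Among integrins and other matrix receptors 8 of the 19 tested genes were higher in UWB1.289 and 4 in OVCAR3. This was 63.2% together beside the background of 38.4%, in a list written with earlier results of these data known. In the olaparib libraries 7 of 20 tested members were higher in UWB1.289 and 5 in OVCAR3. ITGB3, which pairs with the alpha chains of fibronectin and vitronectin receptors, stood at 161, 146, 126 and 137 CPM in UWB1.289 and 3.76, 3.47, 1.3 and 1.14 CPM in OVCAR3 (log2 fold change 5.92 ± 0.17 SE, adjusted p = 3.5e-23). ITGB6, the epithelial chain of the receptor that frees latent TGF-beta, stood at 48.4, 58.5, 57.9 and 59.5 CPM in UWB1.289 and 5.88, 6.76, 3.89 and 4.85 CPM in OVCAR3 (log2 fold change 3.4 ± 0.15 SE, adjusted p = 5.64e-19). Both genes were higher in every UWB1.289 library. ITGB2, a beta chain mostly known from leukocytes, averaged 135 ± 22.6 CPM in UWB1.289 against 1.65 ± 0.423 CPM in OVCAR3 (6.36). The collagen receptor chain ITGA2 (3.26) and the laminin receptor chains ITGA3 (1.25) and ITGB4 (2.09) were also higher in UWB1.289. ITGB5 (-1.23), ITGA1 (-2.22) and the collagen-binding kinases DDR1 (-1.78) and DDR2 (-2.46) were higher in OVCAR3. The widely shared chains ITGB1, ITGAV, ITGA5 and ITGA6 were not differentially expressed (0.36, 0.66, 0.53 and 0.89).

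Matrix proteases and their inhibitors were split between the lines. In all 12 of 36 tested genes were higher in UWB1.289 and 15 in OVCAR3. Urokinase and its receptor sided with UWB1.289: PLAU, which activates plasminogen, stood at 100.03, 126, 61.2 and 118 CPM in UWB1.289 and 8.66, 15.6, 13.1 and 9.71 CPM in OVCAR3 (log2 fold change 3.11 ± 0.17 SE, adjusted p = 4.11e-16), and its receptor PLAUR differed by 2.42. MMP14, a membrane-bound metalloprotease, MMP2, which it activates, and the inhibitor TIMP1 were higher in UWB1.289 (5.71, 2.29 and 2.28). The tested kallikrein-related peptidases KLK5, KLK6, KLK7 and KLK10 were higher in OVCAR3. KLK5 stood at 1.95, 2.14, 0 and 1.17 CPM in UWB1.289 and 78.9, 79.4, 75.2 and 73.8 CPM in OVCAR3 (log2 fold change -5.85 ± 0.21 SE, adjusted p = 9.4e-21), and KLK6, KLK7 and KLK10 differed by -3.09, -4.66 and -2.69. CTSB, the lysosomal cathepsin B, stood at 80.7, 71.7, 98 and 81.7 CPM in UWB1.289 and 688, 846, 763 and 723 CPM in OVCAR3 (log2 fold change -3.18 ± 0.087 SE, adjusted p = 7.8e-24). PLAU, KLK5 and CTSB had no overlap between the lines. Cathepsins CTSL and CTSV (-1.98 and -2.02), TIMP3 (-1.75), ADAMTS1 and ADAMTS5 (-1.41 and -4.73) and MMP10 (-4.23) were higher in OVCAR3.

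Growth factor receptors were held in different sets, with 10 of 31 tested genes higher in UWB1.289 and 13 in OVCAR3. EGFR, the receptor of epidermal growth factor, stood at 125, 155, 149.7 and 154 CPM in UWB1.289 and 63.6, 78.9, 63.5 and 69.4 CPM in OVCAR3 (log2 fold change 1.09 ± 0.088 SE, adjusted p = 2.59e-12). MET, the receptor of hepatocyte growth factor, stood at 334, 328, 436 and 399 CPM in UWB1.289 and 8.01, 10.1, 9.93 and 6.99 CPM in OVCAR3 (log2 fold change 5.42 ± 0.12 SE, adjusted p = 4.49e-26). ERBB4, a neuregulin receptor of the EGFR family, stood at 2.55, 0.66, 0.632 and 2.35 CPM in UWB1.289 and 60.1, 67.5, 57.4 and 65.2 CPM in OVCAR3 (log2 fold change -5.27 ± 0.20 SE, adjusted p = 2.51e-20). The groups were apart for all 3 genes, EGFR and MET in favour of UWB1.289 and ERBB4 in favour of OVCAR3. Within the EGFR family ERBB3 was higher in OVCAR3 as well (-1.48), and ERBB2 differed by -0.38. IGF1R, the receptor of insulin-like growth factor 1, was higher in UWB1.289 (3.2), whereas INSR, the insulin receptor, was higher in OVCAR3 (-2.09). All 4 fibroblast growth factor receptors FGFR1, FGFR2, FGFR3 and FGFR4 were higher in OVCAR3 (-3.76, -1.29, -1.47 and -2.64). The ephrin receptors EPHB3 (-5.01) and EPHA4 (-3.28) and the receptor LIFR (-5.3) were higher in OVCAR3, and EPHB1 (2.06), MST1R (2.84), the neuropilin NRP1 (3.31) and MERTK (1.98) in UWB1.289.

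Several ligands of EGFR, though not betacellulin, were higher in UWB1.289. AREG, or amphiregulin, stood at 92.1, 107, 124 and 133 CPM in UWB1.289 and 11.1, 12.3, 11.9 and 7.28 CPM in OVCAR3 (log2 fold change 3.43 ± 0.13 SE, adjusted p = 5.46e-20), and TGFA at 49.3, 44.2, 59.1 and 52.7 CPM in UWB1.289 and 5.56, 5.38, 4.46 and 5.42 CPM in OVCAR3 (log2 fold change 3.3 ± 0.14 SE, adjusted p = 7.27e-19). Both were higher in each UWB1.289 library than in any of OVCAR3. HBEGF (1.57), EREG (2.86) and NRG1, a ligand of ERBB3 and ERBB4 (2.34), were also higher in UWB1.289, and betacellulin BTC (-1.66) and NRG2 (-4.61) in OVCAR3. MDK, the heparin-binding midkine, stood at 138, 122, 96.1 and 101 CPM in UWB1.289 and 421, 419, 404 and 446 CPM in OVCAR3 (log2 fold change -1.89 ± 0.087 SE, adjusted p = 4.09e-18). Over the whole group of growth factors and their binding proteins 18 of the 42 tested genes were higher in UWB1.289 and 13 in OVCAR3. The FGF carrier FGFBP1 (2.83), the IGF-binding IGFBP5, IGFBP6 and IGFBP7 (2.49, 2.7 and 4.92), GAS6, the ligand of AXL (4.49), CSF1, a growth factor of macrophages (3.58), the stress-responsive GDF15 (3.48) and ANGPTL4 (6.01) were higher in UWB1.289, and FGF5 was at least 53.2-fold higher. OVCAR3 had more of PDGFA and PDGFC (-2.44 and -1.22), FGF9 (-3.05), IGF1 (-1.85) and the ephrins EFNB2 and EFNA5 (-3.49 and -2.14). VEGFA, the vascular growth factor, and the IGF-binding IGFBP2 and IGFBP3 were not differentially expressed (0.16, -0.73 and 0.28). IGF2 is listed at 0 in all 8 libraries, at a place where other annotated genes overlap it.

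The ERK pathway carries signals of these receptors and switches on its own brakes. Among ERK feedback and immediate early genes 12 of the 26 tested genes were higher in UWB1.289 and 3 in OVCAR3. DUSP6, a phosphatase that inactivates ERK, stood at 150.3, 142, 147 and 148 CPM in UWB1.289 and 12.3, 16.8, 11.1 and 13.3 CPM in OVCAR3 (log2 fold change 3.46 ± 0.10 SE, adjusted p = 9e-23). FOSL1, an AP-1 factor, averaged 24 ± 3.75 CPM in UWB1.289 against 0.166 ± 0.246 CPM in OVCAR3 (7.11), and EGR1, an immediate early factor, averaged 25.7 ± 3.03 CPM in UWB1.289 against 186 ± 26.7 CPM in OVCAR3 (-2.86). The groups were apart for all 3 genes, with EGR1 in the opposite direction to the others. DUSP4 and DUSP5 (3.58 and 2.65), the ETS factors ETV4 and ETV5 (1.76 and 4.12), PHLDA1 (5.08), the ERK pathway inhibitor SPRY4 (4.0) and the targets CCND1 and MYC (2.35 and 2.44) were higher in UWB1.289, and FOS was higher in OVCAR3 (-2.42). SPRY2 and JUN were not differentially expressed (0.77 and -0.60). In the olaparib libraries DUSP6, SPRY4, ETV4 and CCND1 were no longer called between the lines (0.54, -0.19, 0.13 and 1.0), and this difference was not tested.

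Transcripts that respond to glucocorticoids, of which MEGM kits contain one, were near the background in number. Of these genes 5 of the 18 tested genes were higher in UWB1.289 and 1 in OVCAR3, 33.3% against 38.4%. PER1 and KLF9, which respond to the hormone in many tissues, were higher in UWB1.289 (1.9 and 1.75), and ZBTB16 was at least 36.7-fold higher. MT2A, a metallothionein that also responds to metals, differed by 4.76 while TNFAIP3, a brake on NF-kB, was higher in UWB1.289 as well. CRISPLD2 went the other way and was higher in OVCAR3, but lost its call without UWB1.289 replicate 3. FKBP5, TSC22D3 and the receptor NR3C1 differed by less than 2-fold (0.77, 0.59 and 0.11).

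The TGF-beta and BMP pathways were divided by ligand. Of their genes 13 of the 42 tested genes were higher in UWB1.289 and 15 in OVCAR3. BMP7 had from 0 to 0.261 CPM in UWB1.289 and from 640 to 690.1 CPM in OVCAR3. ID1, a helix-loop-helix inhibitor that BMP signalling induces, stood at 50.8, 54.9, 42.5 and 47.7 CPM in UWB1.289 and 327, 401, 368 and 361 CPM in OVCAR3 (log2 fold change -2.9 ± 0.086 SE, adjusted p = 6.43e-23). Every OVCAR3 library was the higher one for both genes. ID2, ID3 and ID4 (-3.63, -4.71 and -2.59), the BMP-induced inhibitor SMAD6 (-1.98), the transducer SMAD1 (-1.33) and the receptor BMPR1B (-5.74) were also higher in OVCAR3. Other BMP ligands went the opposite way, BMP4 at 2.6 and BMP6 at 3.43, and in UWB1.289 BMP2 was at least 30-fold higher. Among the TGF-beta and activin ligands TGFB1, INHBA and INHBB were higher in UWB1.289 (3.13, 4.77 and 1.19) and TGFB2 in OVCAR3 (-1.68). The receptors were exchanged too, with TGFBR2 higher in UWB1.289 (1.23) and TGFBR1 in OVCAR3 (-1.52). Of the activin and BMP antagonists FST was higher in OVCAR3 (-2.61) and FSTL3 and GREM1 in UWB1.289 (1.98 and 2.05), while NOG differed by -0.094.

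Of the WNT pathway genes 7 of the 30 tested genes were higher in UWB1.289 and 14 in OVCAR3, 70% in all beside the background of 38.4%. Of the 55 listed genes 25 were not tested, and 12 calls remained at an average count above 50. Among the tested genes 3 had 3 or fewer counts in 1 line and had to differ, so nothing is read from this share. DKK1, a secreted antagonist, stood at 18.3, 21.6, 19.3 and 20.6 CPM in UWB1.289 and 0, 0, 0 and 0 CPM in OVCAR3, at least 172-fold higher in UWB1.289. SFRP1, another secreted antagonist, stood at 340.0, 311, 239 and 305 CPM in UWB1.289 and 10.1, 9.37, 9.93 and 15.1 CPM in OVCAR3 (log2 fold change 4.73 ± 0.13 SE, adjusted p = 3.79e-24). WNT5A, a ligand of the non-canonical branch, stood at 2.85, 2.14, 2.53 and 2.35 CPM in UWB1.289 and 38.1, 43.9, 47.1 and 49 CPM in OVCAR3 (log2 fold change -4.16 ± 0.16 SE, adjusted p = 7.73e-20). The antagonists DKK1 and SFRP1 were thus higher in each UWB1.289 library and WNT5A in each OVCAR3 library. The feedback genes AXIN2 (-2.65) and ZNRF3 (-2.13), the R-spondin receptor LGR4 (-2.71), the frizzled FZD3 (-1.68), the nuclear effectors TCF7L1 and TCF7L2 (-2.84 and -1.45), the ligand WNT10A (-3.57) and the antagonist DKK2 (-6.48) were higher in OVCAR3, and the feedback gene NKD2 was at least 103-fold higher. TCF7 (2.59), WNT9A (1.71) and the R-spondin RSPO4 (5.46) were higher in UWB1.289, where WNT7A had 357 counts against 3.

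**Figure D3:**
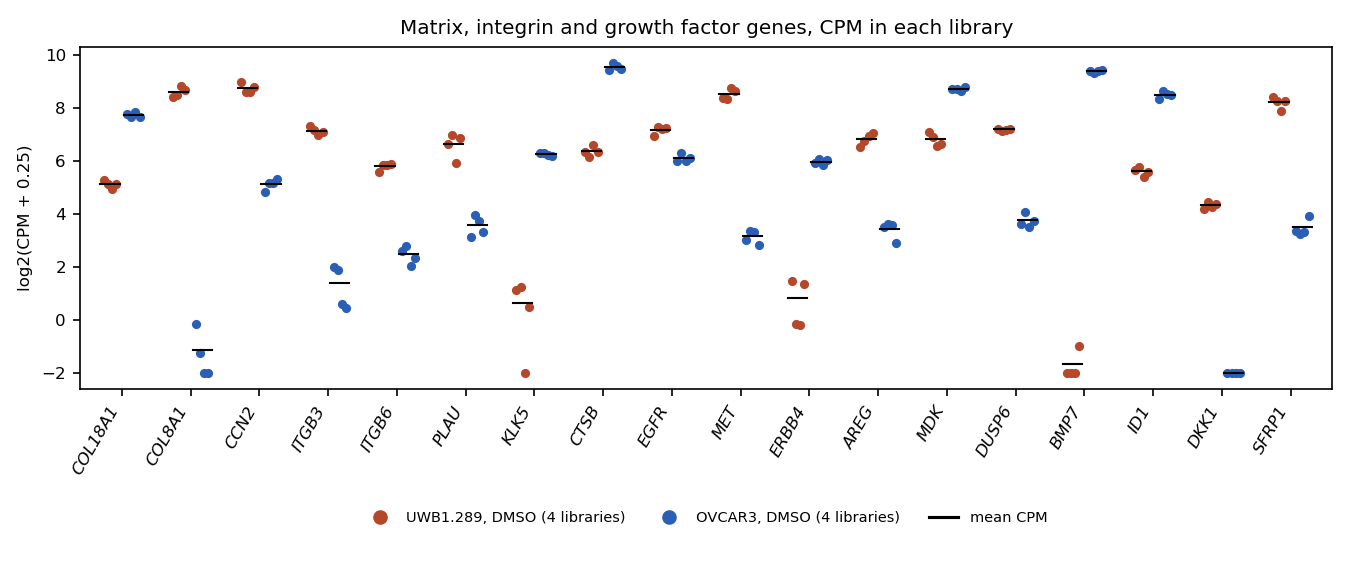
Levels of matrix, integrin, protease and growth factor pathway genes in each library as log2(CPM + 0.25), with 4 UWB1.289 libraries on the left and 4 OVCAR3 libraries on the right of each gene and bars at the group means. COL18A1, KLK5, CTSB, ERBB4, MDK, BMP7 and ID1 are higher in OVCAR3 and the other 11 genes in UWB1.289, without overlap.

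Class I antigen presentation, which shows peptides to CD8 T cells, was split between the lines with DMSO. Of its genes 2 of the 16 tested genes were higher in UWB1.289 and 5 in OVCAR3, 43.8% in all, close to the background. In the olaparib libraries 5 of 18 tested members were higher in UWB1.289 and 0 in OVCAR3. HLA-B stood at 74.1, 87.9, 73.4 and 87.5 CPM in UWB1.289 and 28.3, 37.1, 36.4 and 28.5 CPM in OVCAR3 (log2 fold change 1.31 ± 0.10 SE, adjusted p = 1.61e-12). HLA-C stood at 89.4, 89.9, 77.1 and 85.6 CPM in UWB1.289 and 175, 171, 182 and 177 CPM in OVCAR3 (log2 fold change -1.04 ± 0.075 SE, adjusted p = 1.89e-13). HLA-B was higher in each UWB1.289 library and HLA-C in each OVCAR3 library, although HLA-C fell short of 2-fold without UWB1.289 replicate 3 (-0.99). These genes are near-identical and differ in sequence between people, so that counts on a single reference are uncertain. B2M, the shared light chain, averaged 388 ± 24.3 CPM in UWB1.289 against 520.5 ± 38.7 CPM in OVCAR3 (-0.42), and the regulator IRF1 (-1.27) and the loading factor PDIA3 (-1.23) were higher in OVCAR3. In class II, CD74, the invariant chain, was higher in UWB1.289 (1.31), while HLA-DRA and HLA-DRB1 had no count there and 76 and 74 counts over the OVCAR3 libraries, too few to be called.

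Of 47 cytokine and chemokine genes 27 were too low to test. The 20 tested genes were called, 16 higher in UWB1.289 and 4 in OVCAR3, but some of them passed the filter on low counts through UWB1.289 alone and had to differ, so nothing is read from this share. CXCL8, which attracts neutrophils, stood at 36.6, 34.5, 24.2 and 37.2 CPM in UWB1.289 and 0.654, 1.73, 1.58 and 0.714 CPM in OVCAR3 (log2 fold change 4.81 ± 0.23 SE, adjusted p = 1.39e-17). LTB, the lymphotoxin beta chain of the TNF family, stood at 101, 109, 147 and 103 CPM in UWB1.289 and 2.78, 2.25, 3.17 and 1.57 CPM in OVCAR3 (log2 fold change 5.55 ± 0.17 SE, adjusted p = 9.42e-23). Each UWB1.289 library exceeded each OVCAR3 library in both genes. The inflammatory IL1A (6.06), TNF (3.39), IL18 (2.71) and IL23A (3.15) and the chemokines CXCL16 (2.59) and CXCL1 (1.74) were also higher in UWB1.289. CXCL5, IL1B and IL32 had 342, 91 and 88 counts there against 2, 1 and 2. Higher in OVCAR3 were MIF (-1.93), the mucosal chemokine CCL28 (-1.18), IL15 (-1.07) and TNFSF15 (-1.07), of which the last 2 lost their call without UWB1.289 replicate 3 (-0.98 for IL15) or replicate 1 (-0.78 for TNFSF15). The T cell chemokines CXCL10 and CCL5, with CCL2 and IL6, were too low to test, at 7, 10, 65 and 1 counts over the UWB1.289 libraries and 1, 0, 2 and 1 over the OVCAR3 libraries.

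Among cytokine and interferon receptors and their signalling genes 19 of the 53 tested genes were higher in UWB1.289 and 9 in OVCAR3. IL1R1, the receptor of IL-1, stood at 3.9, 2.8, 3.16 and 1.57 CPM in UWB1.289 and 73.5, 72.3, 76.6 and 85.3 CPM in OVCAR3 (log2 fold change -4.77 ± 0.16 SE, adjusted p = 7.59e-22), the opposite side to its ligands. TLR4, the receptor of bacterial lipopolysaccharide, stood at 9.75, 14.8, 11.7 and 14.6 CPM in UWB1.289 and 0, 0, 0 and 0 CPM in OVCAR3, at least 109.9-fold higher in UWB1.289. Neither gene overlapped between the lines. IFNAR1 stood at 32.7, 32, 36.8 and 33 CPM in UWB1.289 and 96.1, 90.9, 83.8 and 89.8 CPM in OVCAR3 (log2 fold change -1.42 ± 0.089 SE, adjusted p = 6.84e-15), and IFNAR2 at 12.4, 8.91, 12.8 and 13 CPM in UWB1.289 and 38.2, 31.4, 41.6 and 38.2 CPM in OVCAR3 (log2 fold change -1.66 ± 0.14 SE, adjusted p = 3.67e-12). Both chains of the type I interferon receptor were thus lower in every UWB1.289 library. The signalling factors IRF9 and IRF3 were higher in UWB1.289 (1.14 and 1.89), whereas STAT2 and JAK1 were not differentially expressed (-0.39 and -0.70). The TNF family receptors CD40 and LTBR (2.41 and 1.41), the last of which binds LTB, IL4R (3.06), STAT5A (3.66) and the chemokine scavenger ACKR3 (5.66) were higher in UWB1.289, where IL1RL1 was at least 93.8-fold higher. The death receptor TNFRSF10B (-1.67), IL18R1 (-3.39) and IL10RB (-2.19) were higher in OVCAR3.

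Interferon-stimulated genes were split at baseline. Of them 13 of the 41 tested genes were higher in UWB1.289 and 7 in OVCAR3, 48.8% in all, with a median of 0.51. BST2, or tetherin, which holds budding viruses, stood at 375, 388, 346 and 355 CPM in UWB1.289 and 2.61, 2.6, 3.74 and 3.85 CPM in OVCAR3 (log2 fold change 6.81 ± 0.12 SE, adjusted p = 1.96e-28). IFI27 stood at 104, 113, 68.5 and 105 CPM in UWB1.289 and 3.6, 7.29, 4.89 and 7.14 CPM in OVCAR3 (log2 fold change 4.09 ± 0.17 SE, adjusted p = 1.43e-19), and the ubiquitin-like ISG15 at 83.8, 98.6, 81.7 and 96.8 CPM in UWB1.289 and 21.6, 26, 22.9 and 19.8 CPM in OVCAR3 (log2 fold change 2.0 ± 0.10 SE, adjusted p = 4.64e-17). These 3 genes were higher in every UWB1.289 library. PARP14, an ADP-ribosyltransferase, stood at 87.1, 103, 85.7 and 101 CPM in UWB1.289 and 239, 193, 199 and 209.9 CPM in OVCAR3 (log2 fold change -1.16 ± 0.083 SE, adjusted p = 1.6e-13) and was higher in every OVCAR3 library. Of the other members the DNA-binding IFI16 (6.05), XAF1 (5.59), the oligoadenylate synthetases OAS1 and OAS3 (1.39 and 1.93), IFIT1 (1.83) and IFITM3 (1.08) were higher in UWB1.289, and OAS2 had 449 counts there against 1. GBP2 (-2.83), PARP9 (-2.16), UBE2L6 (-1.48), IFITM2 (-1.09) and MX2 (-1.67) were higher in OVCAR3. MX1, IFIT3 and IFI44L were not differentially expressed (0.44, -0.15 and 0.59). In the olaparib libraries 34 of 45 tested members were higher in UWB1.289 and 1 in OVCAR3, and PARP14 stood at 0.34.

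The promoters of BST2, IFI27, ISG15 and PARP14 are shown because these genes share the interferon response element and differed in opposite directions in the DMSO libraries. They run from 250 bases before to 50 bases after the start site in RefSeq (GRCh38.p14), at chr19:17405581-17405880 on the minus strand, chr14:94110486-94110785 on the plus strand, chr1:1013247-1013546 on the plus strand and chr3:122680589-122680888 on the plus strand, with matches to the element, searched in either orientation as GAAA, any 2 bases and GAAA again, in capitals.
BST2 promoter: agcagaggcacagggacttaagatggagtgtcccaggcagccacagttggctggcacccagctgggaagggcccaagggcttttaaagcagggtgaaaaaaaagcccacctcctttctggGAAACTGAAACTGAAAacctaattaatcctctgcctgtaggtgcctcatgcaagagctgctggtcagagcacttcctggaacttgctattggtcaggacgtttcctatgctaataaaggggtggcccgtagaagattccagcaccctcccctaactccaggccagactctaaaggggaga
IFI27 promoter: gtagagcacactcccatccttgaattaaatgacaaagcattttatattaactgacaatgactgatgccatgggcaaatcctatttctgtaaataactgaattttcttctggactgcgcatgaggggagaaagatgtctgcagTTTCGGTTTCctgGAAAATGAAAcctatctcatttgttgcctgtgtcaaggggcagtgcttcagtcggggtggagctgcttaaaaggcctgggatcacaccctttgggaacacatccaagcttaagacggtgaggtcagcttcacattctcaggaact
ISG15 promoter: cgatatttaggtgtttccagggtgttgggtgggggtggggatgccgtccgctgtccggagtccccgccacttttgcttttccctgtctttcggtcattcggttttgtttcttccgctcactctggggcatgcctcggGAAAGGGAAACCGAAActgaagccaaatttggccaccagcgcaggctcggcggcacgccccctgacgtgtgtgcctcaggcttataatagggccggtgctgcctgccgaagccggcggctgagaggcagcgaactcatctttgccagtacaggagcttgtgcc
PARP14 promoter: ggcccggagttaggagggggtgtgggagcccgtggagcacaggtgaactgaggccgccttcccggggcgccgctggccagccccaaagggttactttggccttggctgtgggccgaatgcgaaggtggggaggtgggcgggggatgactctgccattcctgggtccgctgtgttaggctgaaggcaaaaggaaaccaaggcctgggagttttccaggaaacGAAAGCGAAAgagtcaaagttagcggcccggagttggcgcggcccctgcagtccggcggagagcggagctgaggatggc
BST2, IFI27 and ISG15 held 2 matches each, in BST2 and ISG15 overlapping, and PARP14 held 1. Of the tested interferon-stimulated genes with a promoter in the table, 7 of 11 higher in UWB1.289, 2 of 4 higher in OVCAR3 and 14 of 20 not called held a match, against 3.648% of all 27305 promoters. The motif was therefore found among members of all 3 kinds.

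The sensors that detect nucleic acid in the cytosol and related genes differed in a few members. Of these genes 5 of the 14 tested were higher in UWB1.289 and 0 in OVCAR3, 35.7% in all, close to the background of 38.4%. CGAS, which makes the second messenger for STING1 when it meets DNA, had 616 counts over the UWB1.289 libraries and 3 over the OVCAR3 libraries, a ratio of 199 with a 95% counting interval of 67.6 to 965. IFIH1, the RNA sensor MDA5, averaged 32 ± 4.59 CPM in UWB1.289 against 4.68 ± 0.308 CPM in OVCAR3 (2.77), and RNASEH2B, a subunit of the RNase that removes ribonucleotides from DNA, differed by 1.75. STING1, the kinase TBK1 and the adaptor MAVS were not differentially expressed (0.26, 0.22 and 0.89).

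Ligands that T cells and phagocytes read on the tumour cell also differed. Of the immune checkpoint and adhesion ligands 9 of the 23 tested genes were higher in UWB1.289 and 7 in OVCAR3. CD47, the signal against phagocytosis, stood at 249, 269.6, 191 and 252 CPM in UWB1.289 and 1585, 1640.0, 1684 and 1659 CPM in OVCAR3 (log2 fold change -2.77 ± 0.081 SE, adjusted p = 4.2e-23). ICAM1, the ligand of leukocyte integrins, stood at 36.4, 38.8, 36.4 and 42.1 CPM in UWB1.289 and 2.12, 3.12, 1.73 and 1.71 CPM in OVCAR3 (log2 fold change 4.16 ± 0.18 SE, adjusted p = 6.42e-19). NT5E, the CD73 enzyme that makes adenosine, stood at 133, 139, 134 and 143 CPM in UWB1.289 and 6.7, 6.07, 4.75 and 5.14 CPM in OVCAR3 (log2 fold change 4.61 ± 0.11 SE, adjusted p = 6.72e-25). CD47 was higher in each OVCAR3 library and ICAM1 and NT5E in each UWB1.289 library. The ligands of the NKG2D receptor MICB and ULBP1 (3.56 and 3.43), the TIGIT ligand PVR (1.12), the death receptor FAS (2.53) and galectin LGALS1 (2.5) were higher in UWB1.289, and TNFSF18 was at least 151-fold higher. LGALS9 and LGALS3 (-4.35 and -2.02) and CD70 (-2.68) were higher in OVCAR3, where CD200 had 497 counts against 1. CD276 differed by -0.62, and CD274, the PD-L1 gene, was too low to test, with 20 counts in UWB1.289 and 15 in OVCAR3.

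Of the complement and acute-phase genes 2 of 15 tested genes were higher in UWB1.289 and 8 in OVCAR3, 66.7% in all beside the background of 38.4%. Of the 26 listed genes 11 were not tested, and only 4 calls remained at an average count above 50. CLU, the chaperone clusterin, stood at 31.6, 41.9, 26.4 and 30.1 CPM in UWB1.289 and 1511, 1046, 1153 and 1479 CPM in OVCAR3 (log2 fold change -5.32 ± 0.12 SE, adjusted p = 1.46e-25). CP, the copper carrier ceruloplasmin, stood at 17.2, 31.5, 21.8 and 29.2 CPM in UWB1.289 and 405, 231, 279.6 and 404 CPM in OVCAR3 (log2 fold change -3.72 ± 0.16 SE, adjusted p = 3.29e-19). Both genes were higher in every OVCAR3 library. The initiating proteases C1R and C1S (-2.01 and -4.07), their inhibitor SERPING1 (-3.2) and C5 (-2.22) were higher in OVCAR3, and CFI was at least 63.1-fold higher. PTX3, a soluble pattern recognition protein, and LCN2 were the members higher in UWB1.289 (3.78 and 4.3). The central component C3 and the regulators CD46, CD55 and CD59 were not differentially expressed (-0.77, 0.27, -0.75 and -0.41).

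**Figure D4:**
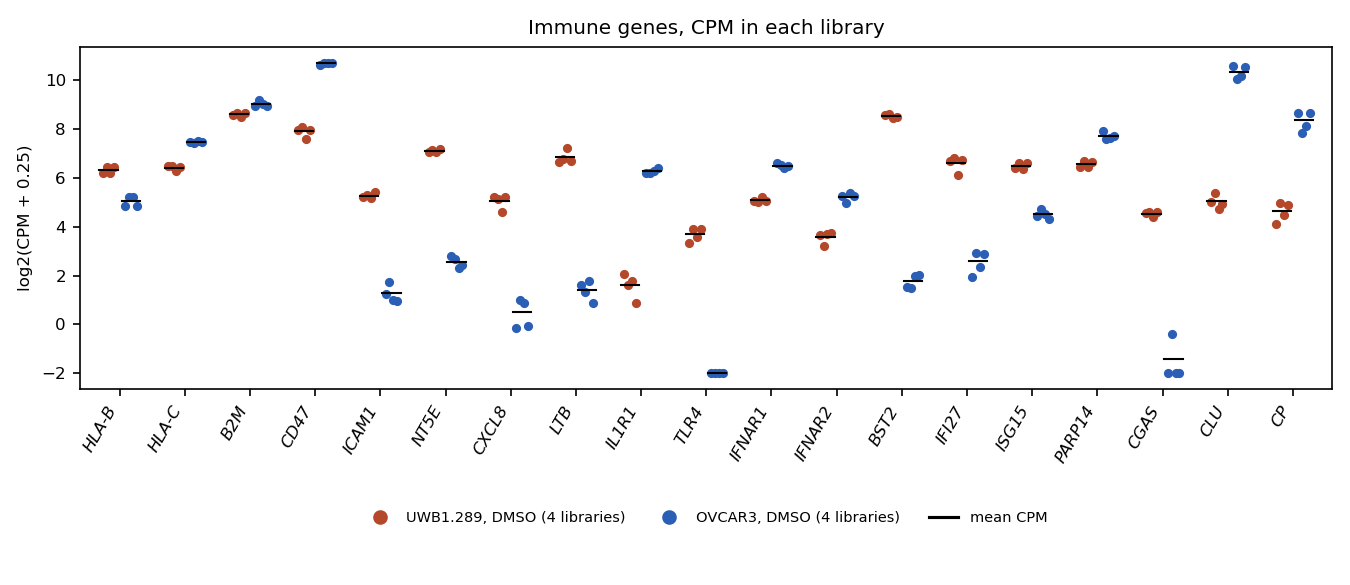
Levels of immune genes in each library as log2(CPM + 0.25), with 4 UWB1.289 libraries on the left and 4 OVCAR3 libraries on the right of each gene and bars at the group means. BST2, CGAS, LTB, CXCL8 and TLR4 lie far higher in UWB1.289, IL1R1, CD47, CLU and CP far higher in OVCAR3, and B2M close together.

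Genes of some of these groups lie side by side and differed together. The following places were looked at after the values of the genes had been seen. On chromosome 7, TES, CAV2, CAV1 and MET are consecutive tested genes from chr7:116210506-116258783 to chr7:116672196-116798377 (GRCh38) and were all higher in UWB1.289 (1.11, 3.27, 5.11 and 5.42), while the next tested genes, CAPZA2 and ST7, were not differentially expressed (0.18 and 0.53). On chromosome 3, P3H2, CLDN1 and CLDN16 were higher in UWB1.289 (1.4, 3.72 and 4.5), with CLDN1 at chr3:190305707-190322446 and CLDN16 starting next to it on the other strand, and the following gene IL1RAP was not (0.18). On chromosome 21, IFNAR2, IL10RB and IFNAR1 lie in a row from chr21:33205282-33265675 to chr21:33324387-33359864 and were higher in OVCAR3. Beyond them IFNGR2, TMEM50B, DNAJC28 and GART lay below the limit on the same side (-0.82, -0.67, -0.84 and -0.64). SON, the next tested gene, was again higher in OVCAR3 (-1.12).

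Chromosome 21 as a whole stood apart. Of its 128 tested genes 4 (3.12%) were higher in UWB1.289 and 72 (56.2%) in OVCAR3, against 18.7% and 19.7% of all tested genes, and the median was -1.13. List members there included IFNAR1, IFNAR2 and IL10RB, COL18A1, ADAMTS1 and ADAMTS5 and MX2, all higher in OVCAR3, while ITGB2 was among the 4 genes of the chromosome higher in UWB1.289. Chromosome 13 leaned the other way, with 79 of 223 tested genes (35.4%) higher in UWB1.289, 18 (8.07%) in OVCAR3 and a median of 0.70. On chromosome 9, 8.37% were higher in UWB1.289 and 29.7% in OVCAR3, and on chromosome 16, 28.5% and 12.6%.

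**Figure D5:**
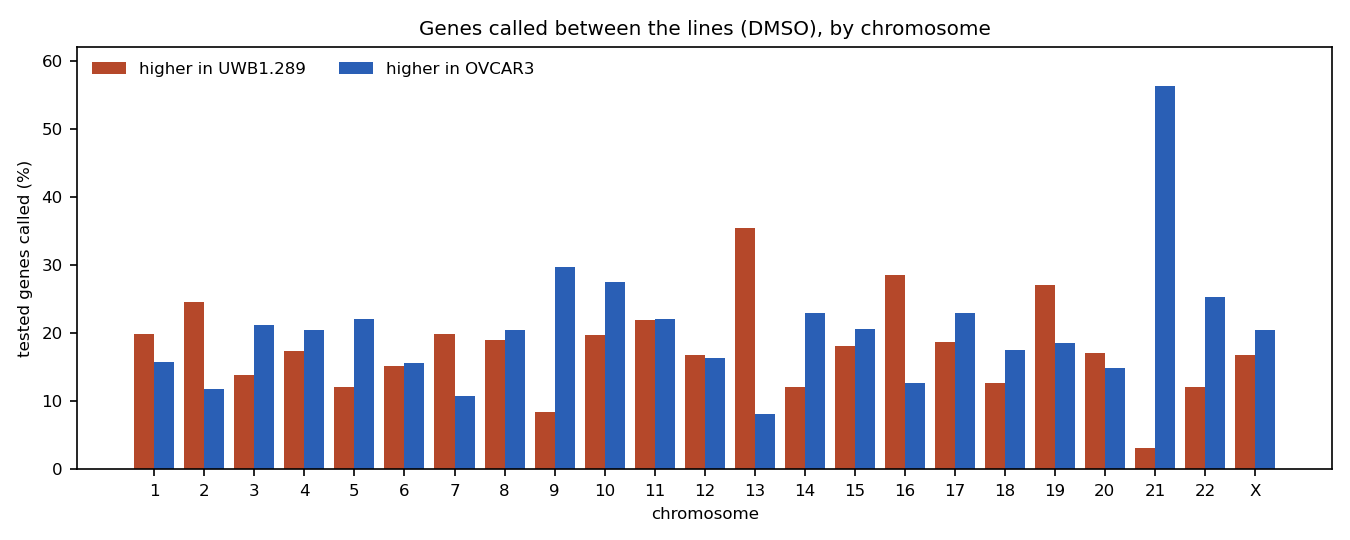
Share of the tested genes of each chromosome that were called between the lines in the DMSO libraries, in percent, with bars for genes higher in UWB1.289 and for genes higher in OVCAR3. Chromosome 21 has the largest gap between its bars, 3.12% against 56.2%, and chromosome 13 the largest in the other direction, 35.4% against 8.07%.

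The same comparison of lines was made in the 8 olaparib libraries, in which the dose also differed between the lines (3.5 µM in UWB1.289 and 7.5 µM in OVCAR3). Of 13398 tested genes 2491 (18.6%) were higher in UWB1.289 and 2448 (18.3%) in OVCAR3, together 36.9%. Of the 5127 genes called with DMSO 3983 were called in the same direction with olaparib. Over all gene lists together 412 of 659 tested genes (62.5%) were called with DMSO, 223 higher in UWB1.289 and 189 in OVCAR3, and 345 of them were called in the same direction with olaparib. CDH1, CDH2, VIM, FN1, AXL, MET and BMP7 were called the same way in both sets of libraries. In the other libraries the log2 fold changes of CDH1, VIM, FN1 and MET were -1.98, 4.15, 5.02 and 4.46. List members called with DMSO only included SOX9 (2.74 with DMSO, 0.66 with olaparib), FST (-2.61 and -0.87), MECOM (-2.2 and -0.94), CXCL1 (1.74 and -0.073) and PARP9 (-2.16 and -0.17). TNFSF15, a TNF family ligand whose libraries overlapped between the lines with DMSO, was called in opposite directions (-1.07 and 1.19), as was the amino acid transporter gene SLC7A8 outside the lists. The differences between the sets of libraries were not tested here.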

How the data were processed

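The authors prepared QuantSeq 3′ mRNA libraries, trimmed the reads, aligned them to hg38 with STAR (version 2.7.9a in the submitters' processing notes) and deposited raw counts per gene made with featureCounts (version 2.0.0 there) on the annotation of GENCODE release 38. The deposited counts are whole numbers for 59428 gene symbols and were not normalized. How strand, overlapping genes and reads with several matches were handled is not given in the sources used here.

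From these counts the 8 DMSO libraries were fitted in R 4.3.3 with edgeR 4.0.16 (TMM scaling, filterByExpr and the quasi-likelihood test, with p-values adjusted by Benjamini-Hochberg over all tested genes), and the 8 olaparib libraries were fitted in the same way. Of 26291 genes with a count in the DMSO libraries 13366 were tested. Where a line had 0 counts, a bound was computed with 3 counts over its 4 libraries. At 1 to 3 counts either the ratio with an exact 95% interval or only the counts of both lines are given. Bounds and intervals cover counting error only. With such genes set at their bound or ratio, the median of each gene list was the same, marker lists of other cell types aside. With a total of about 6629838.5 counts in the median library, a gene near 10 counts carries a large counting error. Between libraries of a line the lowest chi-square per gene was 3.03, so no library was a copy of another. Coordinates come from GENCODE release 44 (GRCh38). The 939 symbols of the 30 gene lists, of which 938 are in the table, and the comparisons were chosen with earlier results of these data known. The genes named were BRCA1, the 10 largest differences in each direction among called genes without overlap, the core genes of each list and its 6 largest called differences. Other members and genes, neighbours and chromosomes were chosen after their values were seen, and some genes under the rule are not reported here. In simulated DMSO counts for 13366 genes, 100 of 100 genes changed 3-fold and 100 of 100 changed 4-fold were called, with 2 unchanged genes. Only 200 genes were changed there, far fewer than differed between the lines. None of them had few counts or a change near 2-fold, so calls near the limits were not simulated. Alternatives were DESeq2 1.42.0, its size factors, other filters and thresholds, all 16 libraries, a replicate block and leaving out each library.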

Additional observations from a re-analysis of the deposited data

Results flagged for a closer look

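In 7 of the 105 groups of 4 libraries whose levels are given, 1 library lay far from the other 3, where chance alone gives such a library in about 5% of groups. In UWB1.289 these were IFNAR2 at 8.91 CPM in replicate 2 (12.4 to 13.0 in the others), ITGB6 at 48.4 CPM in replicate 1 (57.9 to 59.5), LTB at 147 CPM in replicate 3 (101 to 109) and PAX8 at 292 CPM in replicate 3 (281 to 283). In OVCAR3 they were CLDN1 at 66.1 CPM in replicate 2 (48.1 to 50.8), SFRP1 at 15.1 CPM in replicate 4 (9.37 to 10.1) and TGFA at 4.46 CPM in replicate 3 (5.38 to 5.56). None of these libraries reached the range of the other line.

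For 5 named genes all libraries of UWB1.289 lay below those of OVCAR3 with DMSO and above them with olaparib. PARP14 had a log2 fold change of -1.16 with DMSO and 0.34 with olaparib. The values were -0.60 and 0.27 for JUN, -0.39 and 0.31 for STAT2, -0.36 and 0.47 for CLDN3 and -0.21 and 0.38 for KRT19. Whether the difference between the sets of libraries is larger than their spread was not tested.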

How the results depend on the processing

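No named gene changed direction under any alternative tried. With DESeq2, its size factors, an adjusted p below 0.05, no filter on low counts, all 16 libraries or a test against a 2-fold change, the number of genes called between the lines stayed within 1.5 times its value. An average count above 50 left 3245 genes with DMSO (1637 higher in UWB1.289 and 1608 in OVCAR3), and 83 of 395 named genes lost their call for that reason. Without a fold-change threshold 10497 genes were called with DMSO (5246 and 5251) and 10036 with olaparib (5059 and 4977). Leaving out 1 library gave 5100 to 5221 calls with DMSO, 4992 to 5064 with olaparib and 407 to 418 among the list genes. The fit with the replicate number as a block gave 5145 calls. In this pairing of numbers the deviations of same-numbered DMSO libraries correlated between -0.0542 and 0.0641 over 4718 genes, 1 of 4 best with its own number. Such correlations between different lines cannot exclude that same-numbered libraries came from the same experiment.

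Calls near a limit depended on single libraries. Without UWB1.289 replicate 3 the log2 fold changes of HLA-C and CRISPLD2 were -0.99 and -0.93, and without UWB1.289 replicate 1 that of TNFSF15 was -0.78. TNFSF15 also lost its call without OVCAR3 replicate 1 or UWB1.289 replicate 4, and IL15 without OVCAR3 replicate 4 or UWB1.289 replicate 2 or 3. BMP2, EREG, IL1B, IL32, IL10RB and SPRY4 kept their size but fell to an average count of 10 or less without single libraries. HOXA9, GRHL2, ITGA6 and LAMA3 passed 2-fold without single libraries (-1.14 without UWB1.289 replicate 4, -1.02 and 1.03 without UWB1.289 replicate 1 and 1.04 without OVCAR3 replicate 2), and HLA-DRA and HLA-DRB1 passed the count limit without any 1 UWB1.289 library. Against a 2-fold difference 12 named genes lost their call, among them EGFR, HLA-C, IRF9, IFITM2, IFITM3, PKP2, SDC1 and TES. At this depth a gene with few counts in both lines cannot be shown to differ.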
